A study of Mus musculus with 103 samples.

Results

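The data compared here were 20 aortic arch transcriptomes taken after 16 weeks of dosing (day113 in the labels) from mice without apolipoprotein E (ApoE-KO). The labels put 10 of them in the group of ApoE-KO mice given Scl-Ab and 10 in the group given vehicle, each library with an identifier of its own, and the series holds 83 other libraries. The labels do not name the knockout allele. The mice of every group were female C57BL/6, were fed a diet with 42% of calories from fat from 5 to 6 weeks of age, were ovariectomized at 7 to 8 weeks, and began weekly subcutaneous injections at 9 to 10 weeks. Mice of week 16 were 25 to 26 weeks old when sampled, those of week 3 were 12 to 13 and those of week 8 were 17 to 18 weeks old. Scl-Ab was r13C7 at 10 mg/kg, a form of romosozumab with rat frameworks and constant regions, and the vehicle was an acetate, sucrose and polysorbate buffer. The series concerns atheroma, plaque mineral and inflammation under the antibody, and the values below set bounds on the change of genes of those 3 processes. Wild-type (WT) arches of the same week (10 vehicle, 8 Scl-Ab) and ApoE-KO arches of weeks 3 and 8 were used only where a difference between responses was tested.

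Sclerostin, the product of Sost, is a secreted protein of osteocytes that is also made by vascular smooth muscle. It binds the co-receptors LRP5 and LRP6 and so holds back canonical Wnt signalling, and an antibody against it releases bone formation. Loss of apolipoprotein E slows the clearance of remnant lipoproteins, macrophages in the arterial wall fill with lipid, and older plaques gain cartilage-like and mineralized zones in which genes of bone and cartilage matrix are expressed. Arterial mineral is held back by inhibitors such as matrix Gla protein, pyrophosphate and fetuin-A.

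Apoe separated the genotypes. Apoe (chromosome 7, 19696109 to 19699188, GRCm38, protein-coding) ran from 5.67 to 12.6 (median 8.79) in vehicle libraries and from 8.71 to 18.2 (median 13.4) in Scl-Ab libraries, against 256 to 498 in WT vehicle libraries. The log2 change of its remaining signal with Scl-Ab was 0.53 ± 0.16 (limma, adjusted p = 0.211, n = 10 and 10), and 9 of 10 Scl-Ab libraries lay above the vehicle median. All values in the text are deposited fpkm-type values unless called log2, and errors of log2 changes are SE. The arch was recognizable in all 20 libraries: the smooth muscle genes Acta2 and Myh11 did not go below 2828 and 458, the endothelial adhesion gene Pecam1 below 47.6, and the adventitial fibroblast genes Pi16 and Dpt below 134 and 188. Depth in reads is unknown. A relative depth, read from the most common ratio of low values, ran from 0.973 to 1.08 in vehicle and from 0.824 to 1.29 in Scl-Ab libraries.

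Markers of tissue that lies against the arch stood apart in 5 Scl-Ab libraries and in 0 vehicle libraries. A library was counted where the mean log2 value of a tissue list was over 2.5 median absolute deviations above the median of the 20. Cardiomyocyte markers were high in Scl-Ab libraries 1, 2 and 9, those of skeletal muscle in 1 and 2, those of white and brown adipocytes in 7, and those of thymocytes and lymph node in 10. The summed level of 14 cardiomyocyte genes ran from 27 to 121 under vehicle and from 27.5 to 2352 under Scl-Ab, and that of 12 brown adipocyte genes from 113.7 to 946 and from 92.9 to 4177. For 14 white adipocyte genes the sums ran from 666 to 2545 and from 687 to 7717. For 14 skeletal muscle genes they ran from 3.98 to 7.85 (Myod1 at 0 in all 10 vehicle libraries) and from 4.2 to 58.1, and for 12 thymocyte and lymph node genes from 9.72 to 48.2 and from 16.3 to 84.8. Scl-Ab library 7 also had the lowest median correlation with its own group (0.931, against 0.966 to 0.986 in the other 19) and the largest column sum (744987, against 504879 to 608008 in the other 19). Values without these libraries are given beside many of the results that they move, but not beside every gene. That fit leaves out Scl-Ab libraries only, so it holds fewer Scl-Ab than vehicle libraries. In bulk tissue, fewer cells of a type and less RNA per cell cannot be told apart.

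**Figure D1:**
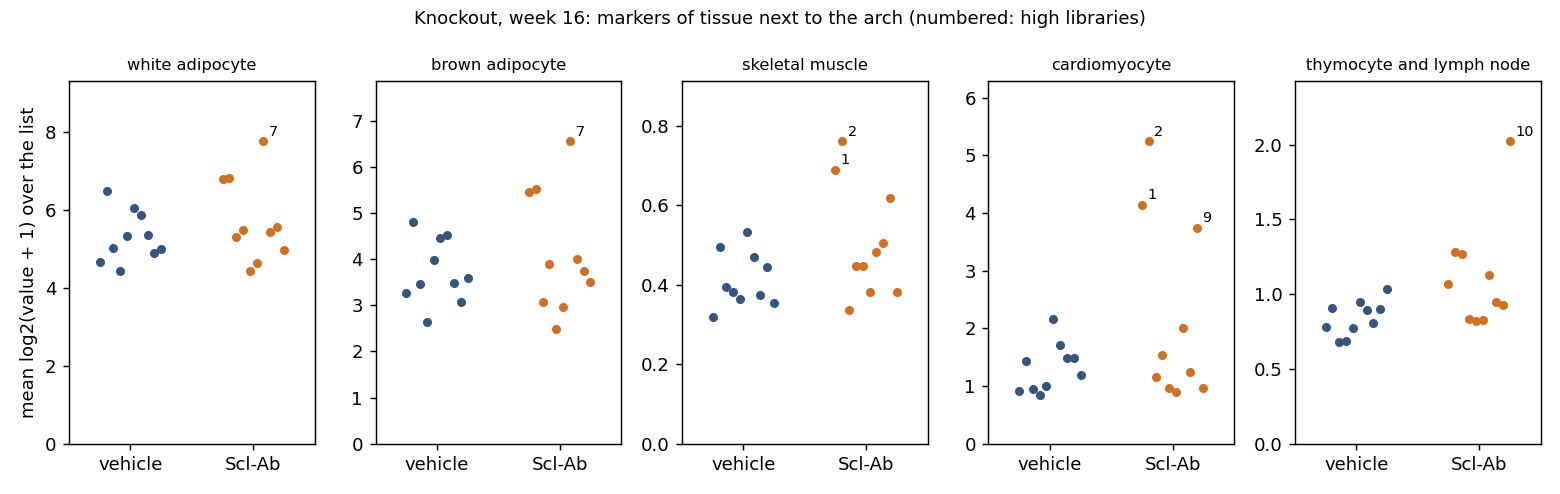
Mean log2(value + 1) of 5 marker lists of tissue next to the aortic arch (vertical axes, from 0) in each of the 10 vehicle and 10 Scl-Ab ApoE-KO libraries of week 16. Numbers mark libraries over 2.5 median absolute deviations above the median of the 20: all 5 numbered libraries are in the Scl-Ab group.

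No gene passed the test between Scl-Ab and vehicle. In limma on log2(value + 1), 0 of 13467 genes had a Benjamini-Hochberg adjusted p under 0.05 (0%), and the smallest adjusted p was 0.187. At an unadjusted p under 0.05 stood 2082 genes (15.5%), of which 790 were higher (5.87%) and 1292 lower (9.59%) under Scl-Ab. Fits with more groups, or without the 5 libraries of neighbouring tissue, called 1 to 2 genes (Gm6793, Dennd4a or Gm13341), none of them in a plaque, inflammation or calcification list. The ranges of the groups did not separate in any gene (0 of 13467, 0%). The median size of a change was 0.098 on the log2 scale and the median SE 0.085, and 22 genes had a change of at least 1 in size. An adjusted p above 0.05 does not show that a gene was equal in both groups, so each gene is given with the 95% interval of its change, which is not adjusted for the number of genes. That interval lay inside 2-fold in either direction for 13141 genes (97.6%) and inside 1.5-fold for 11944 (88.7%). Folds and intervals are on the scale of value + 1, which makes those of genes with low values smaller than the ratio of the values.

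The genes of plaque, inflammation and calcification had wider intervals than most genes, with median distances from the estimate to either end of 0.29, 0.33 and 0.31 (log2) against 0.18 over all genes. Those of calcification genes reached past 2-fold mainly on the lower side. Of 222 plaque genes tested (of 228 in the files), 212 had an interval inside 2-fold (95.5%) and 158 inside 1.5-fold (71.2%). Of 143 inflammation genes (of 188) these counts were 133 (93%) and 99 (69.2%), and of 63 calcification genes (of 80) 50 (79.4%) and 36 (57.1%). Read on the upper side alone, the interval ended below a 2-fold higher level for 215 plaque (96.8%), 137 inflammation (95.8%) and 62 calcification genes (98.4%), against 98.2% of all genes tested. On the lower side it ended above a 2-fold lower level for 219 plaque (98.6%), 138 inflammation (96.5%) and 51 calcification genes (81%), against 99.3% of all genes. Without the 5 libraries of neighbouring tissue the counts on the upper side were 218, 132 and 58. Some inflammation lists had fewer genes tested in that fit (T and NK cell 5 against 7, dendritic cell 5 against 7). The plaque and calcification lists had as many tested as before. With the 2 leading components of clock gene expression as covariates, the counts on the upper side were 219, 140 and 53. Genes below the filter (5 or more of the 20 libraries at 1 or above), among them Tnf, Nlrp3, Tnfsf11 (RANKL), Sp7 (osterix) and Lef1, have no interval here.

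**Figure D2:**
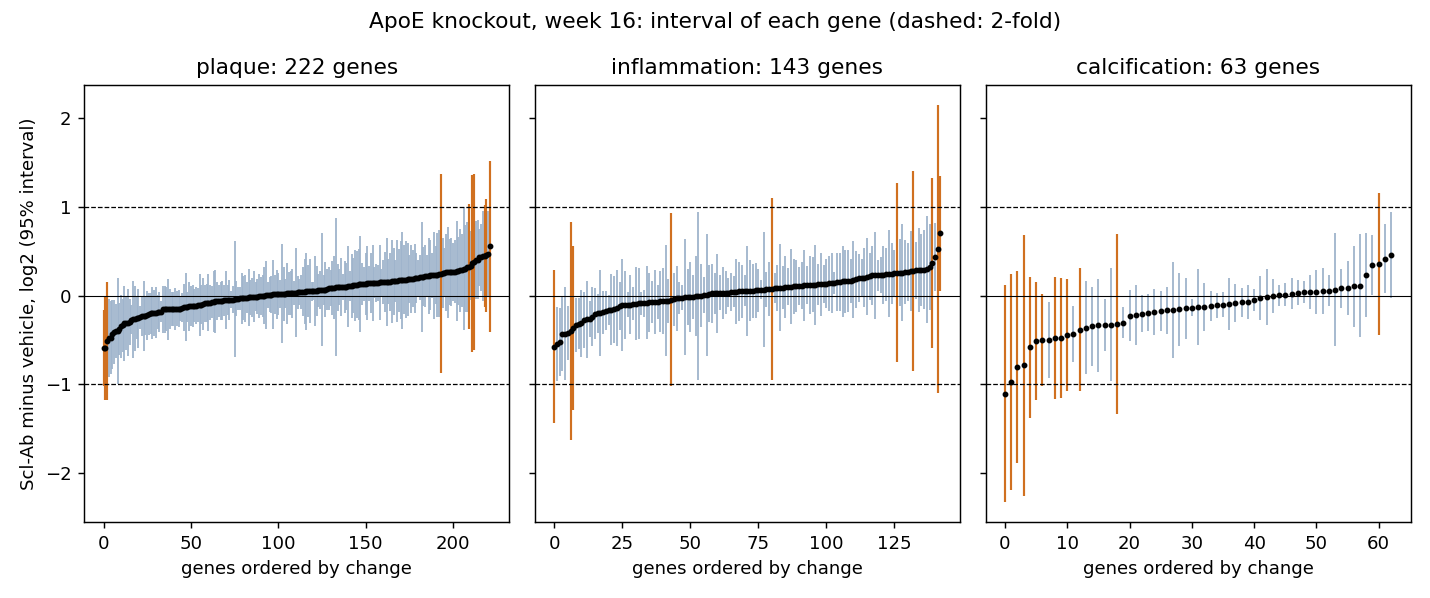
Log2 change under Scl-Ab (points) with its 95% interval (bars) for each tested gene of 3 themes, genes ordered by change along the horizontal axis, 10 ApoE-KO libraries a group. Orange bars reach the dashed 2-fold lines: 10 of 222 plaque, 10 of 143 inflammation and 13 of 63 calcification genes, the latter nearly all on the lower side.

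Markers of lipid-laden macrophages lay slightly higher under Scl-Ab, and none passed. Cd68, a late endosomal glycoprotein of macrophages, ran from 91.1 to 258 (median 142) in vehicle libraries and from 107.8 to 231 (median 186) in Scl-Ab libraries. The ranges overlapped almost entirely, and the change of 0.26 ± 0.18 had an interval of -0.12 to 0.65, or 0.922- to 1.56-fold (adjusted p = 0.456). Trem2, a lipid-sensing receptor of foam cells, ran from 53.3 to 153 (median 81.5) in vehicle libraries and from 70.2 to 141 (median 105) in Scl-Ab libraries, and its interval ended at 1.56-fold. Gpnmb, a lysosomal glycoprotein of lipid-filled macrophages, ran from 195 to 672 (median 307) in vehicle libraries and from 142 to 632 (median 419) in Scl-Ab libraries. Scl-Ab library 7 was its lowest of all 20, and the interval of -0.18 to 0.82 moved to 0.096 to 0.89 without that library. Cd5l, a survival factor that macrophages secrete, ran from 61.8 to 496 (median 156) in vehicle libraries and from 17.6 to 483 (median 253) in Scl-Ab libraries, with library 7 again lowest. Its upper bound of 2.58-fold was among the widest of the plaque genes, and its change of 0.38 was 0.76 (0.075 to 1.45) without library 7. Mmp12, the macrophage elastase, ran from 121 to 405 (median 186) in vehicle libraries and from 82.8 to 365 (median 212) in Scl-Ab libraries, and its interval of -0.47 to 0.53 held it below 1.45-fold higher.

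Of the 19 foamy macrophage genes 1 was higher at an unadjusted p under 0.05, beside 5.87% of all genes, and 16 were held inside 2-fold. A change above 0 was found in 18 of the 19 (50.3% of all genes), with a median of 0.25. Cd9, a tetraspanin, was the exception at -0.22 (-0.50 to 0.055). Without library 7 the list had 17 of 19 above 0 and a median of 0.29. In that fit 6 were higher at an unadjusted p under 0.05, beside 692 of all 13408 genes. Without all 5 libraries of neighbouring tissue it had 14 and 0.28, and with the 2 leading components of clock gene expression as covariates 8 and -0.011. Fabp4, a fatty acid carrier shared by adipocytes and macrophages, had the highest change of the list (0.55, -0.41 to 1.52). It reached 3845 under Scl-Ab against 942 under vehicle. Its change was 0.27 (-0.56 to 1.09) without adipocyte-marked library 7 and -0.23 without all 5 libraries. Of 20 general macrophage genes 15 were above 0 (median 0.13), led by the lysozyme gene Lyz2 at 0.28 (-0.10 to 0.66), and the intervals of all 20 lay inside 2-fold. With the clock components 1 of 20 was above 0 (median -0.14) and Lyz2 stood at -0.027. The lysosomal protease gene Ctsd had the highest change of the lysosome list and ran from 964 to 2208 (median 1284) in vehicle libraries and from 1306 to 1991 (median 1684) in Scl-Ab libraries. All 10 Scl-Ab values exceeded the vehicle median and lay inside the vehicle range, and the interval was -0.017 to 0.53. Of 20 lysosome genes 17 were above 0, and 8 with the clock components. Nr1h3, the oxysterol receptor LXR-alpha, had the highest change among the cholesterol efflux genes (0.43, 0.11 to 0.75, unadjusted p = 0.011, adjusted p = 0.237), and 11 of those 12 genes were above 0. Its highest value was that of library 7, and its change was 0.32 without that library, 0.23 without all 5 and 0.17 with the clock components. Of the 12, 6 were above 0 without the 5 libraries (median 0.040) and 4 with the clock components (median -0.077).

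Contractile and matrix genes of the arterial wall lay slightly lower. Acta2, smooth muscle actin, ran from 4239 to 7413 (median 5234) in vehicle libraries and from 2828 to 6939 (median 4916) in Scl-Ab libraries. The groups overlapped broadly, and the change of -0.20 ± 0.14 was held between 0.711- and 1.07-fold. It was -0.11 without library 7, -0.034 without the 5 libraries and 0.055 with the clock components. The smooth muscle myosin gene Myh11 had an interval of -0.32 to 0.097 and the actin-binding gene Tagln one of -0.59 to 0.074, and the Tagln change of -0.26 was -0.13 without library 7, its lowest. Myocd, the coactivator that drives the contractile programme, ran from 5.56 to 21.4 (median 13.5) in vehicle libraries and from 2.37 to 14.6 (median 10.2) in Scl-Ab libraries (log2 change -0.59 ± 0.28, unadjusted p = 0.0471, adjusted p = 0.319), and its change was -0.35 without the 5 libraries. Of 16 contractile genes 2 were above 0 (median -0.11, 3 lower at an unadjusted p under 0.05, beside 9.59% of all genes). That median was -0.019 without the libraries of neighbouring tissue and 0.078 with the clock components.

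Eln, elastin, ran from 629.7 to 1143 (median 956) in vehicle libraries and from 282 to 1104 (median 693) in Scl-Ab libraries, and 1 of 10 Scl-Ab libraries lay above the vehicle median (log2 change -0.47 ± 0.20, adjusted p = 0.284). The Eln change was -0.28 without the 5 libraries and -0.21 with the clock components. The fibrillar collagen gene Col1a1 was held between 0.825- and 1.16-fold and Col3a1 between 0.742- and 1.02-fold. None of 21 extracellular matrix genes was above 0 (median -0.15, 3 lower at an unadjusted p under 0.05, beside 9.59% of all genes), and the lowest, the basement membrane collagen gene Col15a1, stood at -0.33 (-0.63 to -0.034) and at -0.21 without library 7. Without library 7 the list had 1 lower at an unadjusted p under 0.05, beside 953 of all 13408 genes. Without the 5 libraries of neighbouring tissue it had 0, beside 497 of all 13240 genes. In that fit 9 of the 21 were above 0, with a median of -0.025. Of the endothelial genes 16 of 17 were above 0, with a median of 0.17. Pecam1 had an interval of -0.25 to 0.74 and the endothelial factor gene Egfl7 one of -0.12 to 1.02. Leaving out the same 5 libraries left 7 of 17 endothelial genes above 0 and Egfl7 at -0.019. The part of neighbouring tissue in these medians was not tested beyond these values.

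**Figure D3:**
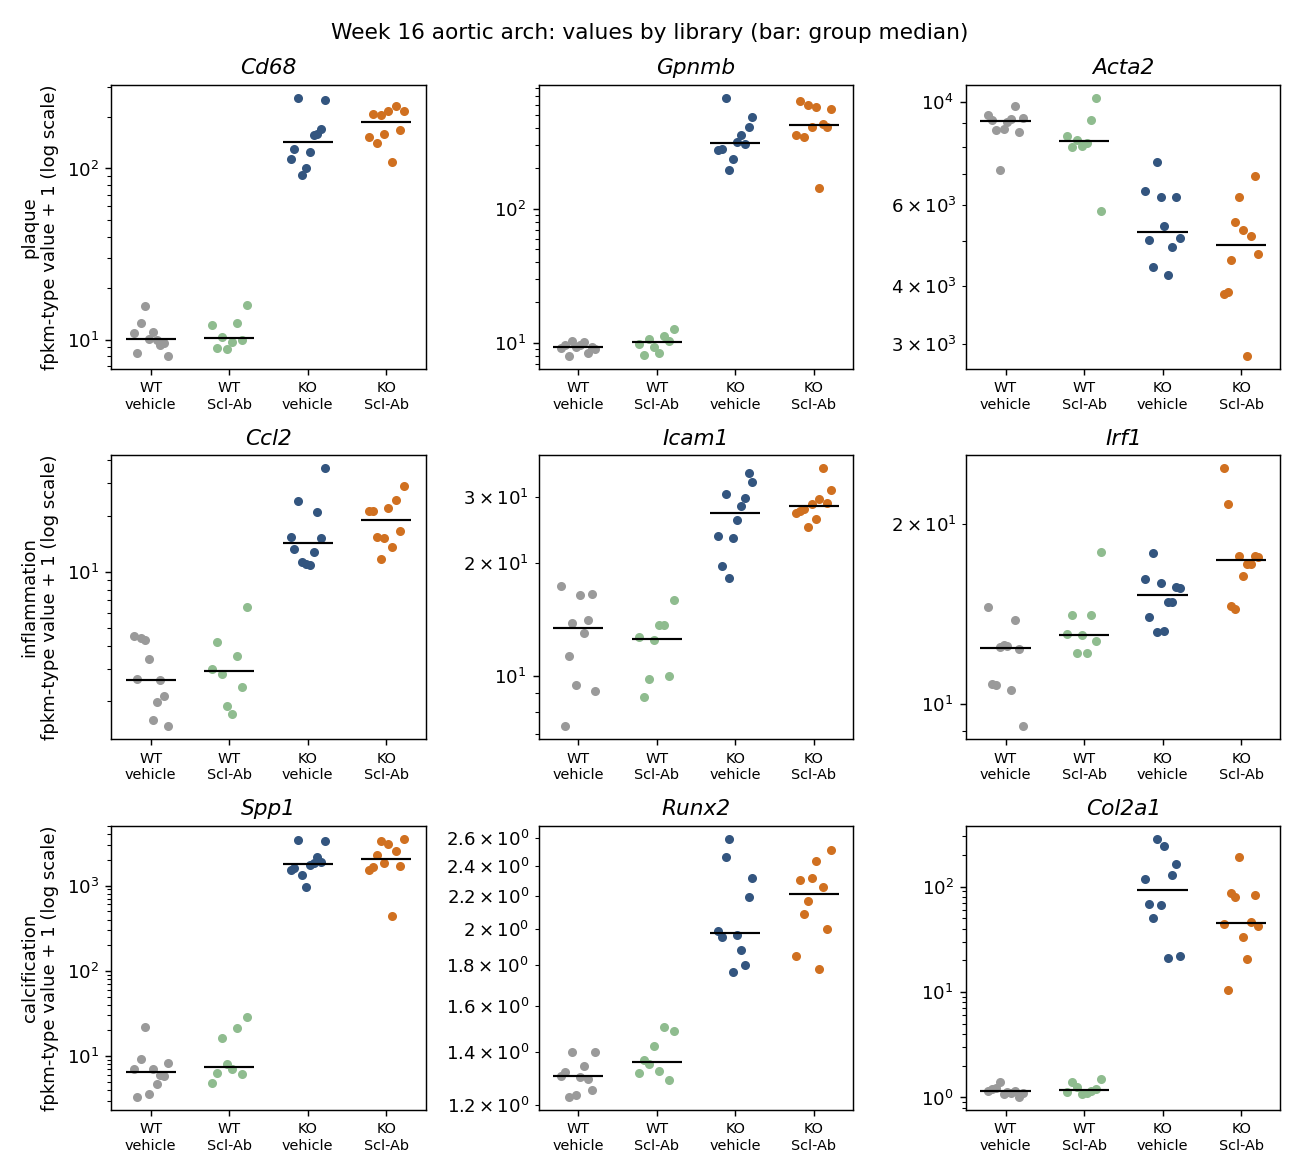
Deposited values + 1 (log scale) of 3 genes each of plaque (top), inflammation (middle) and calcification (bottom) in the WT and ApoE-KO (KO) libraries of week 16, 1 point per library, bars at the group medians. In each gene the points of KO vehicle and KO Scl-Ab overlap, Cd68 from 91.1 to 258 and from 107.8 to 231.

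Leukocyte adhesion and chemokine genes gave no call. Icam1, which docks leukocytes on endothelium, ran from 17.2 to 33.8 (median 26.3) in vehicle libraries and from 24 to 34.9 (median 27.4) in Scl-Ab libraries, and was among the most tightly held inflammation genes named here, between 0.943- and 1.27-fold. Vcam1, its partner in monocyte adhesion, had an interval of -0.49 to 0.31. Ccl2, the main monocyte attractant, ran from 9.85 to 35 (median 13.2) in vehicle libraries and from 10.6 to 27.7 (median 17.9) in Scl-Ab libraries, with a change of 0.21 ± 0.21 (adjusted p = 0.585) and an upper bound of 1.56-fold. Cxcl12, a chemokine of stromal and smooth muscle cells, had a change of 0.0050 (-0.20 to 0.21). The inflammasome product Il1b ran from 0.448 to 8.22 (median 1.34) in vehicle libraries and from 0.657 to 2.75 (median 1.4) in Scl-Ab libraries, and a single vehicle library, replicate 10, stood far above the others. Il6, an inducible cytokine of the vessel wall, ran from 1.51 to 25.7 (median 2.98) in vehicle libraries and from 0.0306 to 10.7 (median 2.08) in Scl-Ab libraries. Its interval of -1.44 to 0.28 ran from 0.368- to 1.22-fold. Of 26 cytokine and chemokine genes 20 were above 0 (median 0.11). The macrophage migration inhibitory factor gene Mif was the 1 higher at an unadjusted p under 0.05 (0.23, 0.026 to 0.44), beside 5.87% of all genes. With the clock components 6 of 26 were above 0 (median -0.098) and Ccl2 stood at -0.13. Mif, Irf7, Kremen1, Cdh11, Phex, Arntl and Nr3c2 are named here after their values were seen.

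Interferon-induced genes lay lower in the Scl-Ab group, without a call. Of 22 genes 1 was above 0 (median -0.20), and 6 were lower and 1 higher at an unadjusted p under 0.05, beside 9.59% and 5.87% of all genes. Iigp1, an interferon-inducible GTPase, ran from 6.19 to 21.1 (median 12.3) in vehicle libraries and from 5.04 to 12.1 (median 8.18) in Scl-Ab libraries, and 0 of 10 Scl-Ab libraries exceeded the vehicle median (log2 change -0.52 ± 0.18, adjusted p = 0.236). Irf7, the transcription factor that amplifies type I interferon, ran from 8.45 to 21.9 (median 12.8) in vehicle libraries and from 6.49 to 11.7 (median 9.43) in Scl-Ab libraries, also with 0 of 10 above the vehicle median (-0.43, -0.73 to -0.12, adjusted p = 0.235). The 1 gene above 0 was Irf1, a transcription factor that interferon-gamma induces (0.23, 0.055 to 0.41), at 0.085 without the 5 libraries and 0.027 with the clock components. The list's median was -0.25 without library 7, -0.33 without the 5 libraries of neighbouring tissue and -0.33 with the clock components, and 1 of 22 was above 0 in each.

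Most lymphocyte genes lay below the filter. Of 22 T and NK cell genes 7 were tested, all 7 were above 0 (median 0.25; 0.050 with the clock components), and the T cell receptor gene Trbc2 reached 21 in Scl-Ab library 10, the library with high thymocyte and lymph node markers. Trbc2 ran up to 1.91 in vehicle libraries (log2 change 0.70, 0.056 to 1.34, adjusted p = 0.297) and its change was 0.52 without the 5 libraries. In that fit, which leaves out library 10, 5 genes of the list were tested and all 5 were above 0 (median 0.25). The fractalkine receptor gene Cx3cr1, of monocytes and macrophages, had a change of 0.43 (0.051 to 0.82), and Nfkbia, the inhibitor and target of NF-kappa-B, one of -0.54 (-0.96 to -0.12). Neither passed (adjusted p = 0.287 and 0.244). Without the 5 libraries the changes of Cx3cr1 and Nfkbia were 0.53 (0.055 to 1.01) and -0.41 (-0.91 to 0.090). Of 12 B cell and 12 neutrophil genes 5 each were tested, and 3 and 2 of these were held inside 2-fold. The loosest bounds of the inflammation lists were among them, at 4.43-fold for a B cell gene and 0.324-fold for a neutrophil gene.

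No gene of bone formation passed. The upper bounds of all 17 tested lay under 2-fold, as did 16 without the 5 libraries of neighbouring tissue and 15 with the clock components. Spp1, osteopontin, which both foam cells and mineralizing cells secrete, ran from 954 to 3433 (median 1774) in vehicle libraries and from 445 to 3531 (median 2038) in Scl-Ab libraries. The change was 0.065 ± 0.31 with an interval of -0.57 to 0.70, or 0.673- to 1.62-fold (adjusted p = 0.919). Library 7 was the lowest Scl-Ab library, and without it the change was 0.30 (-0.17 to 0.77). Runx2, the transcription factor that starts osteoblast differentiation, ran from 0.763 to 1.6 (median 0.976) in vehicle libraries and from 0.779 to 1.51 (median 1.21) in Scl-Ab libraries, near the filter, and was held between 0.923- and 1.17-fold. Alpl, the phosphatase that removes pyrophosphate, ran from 11.4 to 35.5 (median 15.1) in vehicle libraries and from 8.58 to 23.6 (median 16.3) in Scl-Ab libraries, with an interval of -0.56 to 0.30. Ibsp, bone sialoprotein of mineralizing matrix, varied over 18.8 to 186 under vehicle and 2.36 to 127 under Scl-Ab (medians 63 and 32.3). Its wide interval of -2.33 to 0.11 ran from 0.199- to 1.08-fold. The Ibsp change of -1.11 was -0.15 (-1.30 to 0.99) without the 5 libraries and 0.11 (-1.04 to 1.26) with the clock components. The Alpl change of -0.13 was 0.22 (-0.24 to 0.68) and 0.29 (-0.18 to 0.76) in these fits. The osteocalcin gene Bglap had an interval of -0.70 to 0.38, and Sparc, osteonectin, one of -0.30 to 0.13.

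Of 17 osteogenic genes 6 were above 0 (median -0.13), and 2 were lower at an unadjusted p under 0.05, a share near the 9.59% of all genes. These 2 were Cdh11, a cadherin of mesenchymal cells that ran from 4.04 to 7.67 (median 5.73) in vehicle libraries and from 3.63 to 5.81 (median 4.53) in Scl-Ab libraries (log2 change -0.31 ± 0.084, adjusted p = 0.187), and Phex, an endopeptidase of osteocytes (-0.50, -0.93 to -0.073; -0.22 without the 5 libraries). The median of the list was 0.064 without the 5 libraries of neighbouring tissue.

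Cartilage genes had lower values under Scl-Ab with intervals that included 0. Col2a1, the fibrillar collagen of cartilage, ran from 20.1 to 283 (median 92.7) in vehicle libraries and from 9.4 to 189 (median 44.2) in Scl-Ab libraries, and 1 of 10 Scl-Ab libraries exceeded the vehicle median. The ranges overlapped over most of their length (log2 change -0.81 ± 0.52, -1.89 to 0.28, adjusted p = 0.427). Chad, a leucine-rich protein of cartilage matrix, ran from 9.04 to 112.1 (median 55.5) in vehicle libraries and from 2.05 to 98.9 (median 25.6) in Scl-Ab libraries, and Col10a1, the collagen of hypertrophic chondrocytes, ran from 1.05 to 97.4 (median 9.14) in vehicle libraries and from 0.39 to 55.5 (median 3.25) in Scl-Ab libraries. Their intervals of -2.19 to 0.24 and -2.25 to 0.68 reached down to 0.219- and 0.21-fold. Without the 5 libraries the changes of Col2a1, Chad and Col10a1 were -0.21 (-1.48 to 1.05), -0.10 (-1.29 to 1.09) and 0.010 (-1.84 to 1.86). Acan, aggrecan, stood at -0.36 (-0.88 to 0.16). Sox9, the transcription factor of chondrocytes, was held between 0.831- and 1.09-fold.

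Of the 17 cartilage genes tested 0 were above 0 (50.3% of all genes), with a median of -0.44. At an unadjusted p under 0.05 stood 0 (15.5% of all genes), and all 17 had an upper bound under 2-fold. Genes of a list are not replicates, and their shared sign is not 17 separate observations. The median was -0.39 without library 7 and -0.15 without the 5 libraries of neighbouring tissue. With the clock components in the model it was 0.26, Col2a1 stood at 0.75 and Acan at 0.33, and 9 of 17 had an upper bound under 2-fold, against 14 of 17 without the 5 libraries.

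Inhibitors of mineral and genes of osteoclasts showed no common direction. Mgp, matrix Gla protein, ran from 8734 to 13444 (median 10161) in vehicle libraries and from 5034 to 13782 (median 10417) in Scl-Ab libraries, and was held between 0.762- and 1.15-fold. Enpp1, which makes pyrophosphate, ran from 10.8 to 18.9 (median 15) in vehicle libraries and from 5.63 to 17 (median 12.5) in Scl-Ab libraries (log2 change -0.33 ± 0.14, adjusted p = 0.29). The Enpp1 change was -0.15 (-0.40 to 0.097) without the 5 libraries of neighbouring tissue. Ahsg, fetuin-A, a serum inhibitor made mainly by liver, had a change of 0.42 (0.031 to 0.80), and Xylt1, which starts proteoglycan chains, one of -0.44 (-0.75 to -0.12). Leaving out the 5 libraries gave 0.48 (-0.039 to 1.01) for Ahsg and -0.21 (-0.51 to 0.10) for Xylt1. Tnfrsf11b, the RANKL decoy osteoprotegerin, ran from 13.3 to 54.1 (median 25.3) in vehicle libraries and from 7.03 to 34 (median 20.5) in Scl-Ab libraries, and its interval was -0.86 to 0.19, or -0.66 to 0.49 without the 5 libraries. Of 19 genes of mineral inhibition and phosphate handling 8 were above 0 (median -0.051). Of the osteoclast enzymes, the acid phosphatase gene Acp5 had a change of 0.34 (0.0036 to 0.68, adjusted p = 0.321) and the collagenolytic protease gene Ctsk one of 0.086 (-0.22 to 0.39). The Acp5 change was 0.19 (-0.25 to 0.64) without the 5 libraries.

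The genotype difference gives these bounds a scale. Vehicle libraries of ApoE-KO and WT mice differed in 5934 of 13897 genes (42.7%) in limma over the 38 libraries of week 16, a comparison that shares the 10 ApoE-KO vehicle libraries with the Scl-Ab comparison. Spp1 was higher in ApoE-KO by 8.12 ± 0.34, beside an upper bound of 0.70 for Scl-Ab. For Col2a1 these values were 6.20 ± 0.39 and 0.28, for Mmp12 6.59 ± 0.22 and 0.53, for Gpnmb 5.16 ± 0.19 and 0.82, and for Cd68 3.82 ± 0.16 and 0.65. Ccl2 was higher by 2.55 ± 0.24 beside a bound of 0.65, Ibsp by 4.43 ± 0.45 beside 0.11, Tnfrsf11b by 1.93 ± 0.21 beside 0.19, and Alpl by 1.38 ± 0.18 beside 0.30 (log2). For Irf1 the genotype difference of 0.35 ± 0.085 was smaller than the upper bound of 0.41, and for Eln the genotype difference did not pass (-0.14 ± 0.18, adjusted p = 0.562). Without the 5 libraries of neighbouring tissue the upper bounds were 1.0 for Spp1, 1.05 for Col2a1, 0.99 for Ibsp, 0.49 for Tnfrsf11b, 0.68 for Alpl and 0.83 for Cd68. With the clock components they were 0.77, 1.61, 1.26, 0.49, 0.76 and 0.48, in the same order.

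**Figure D4:**
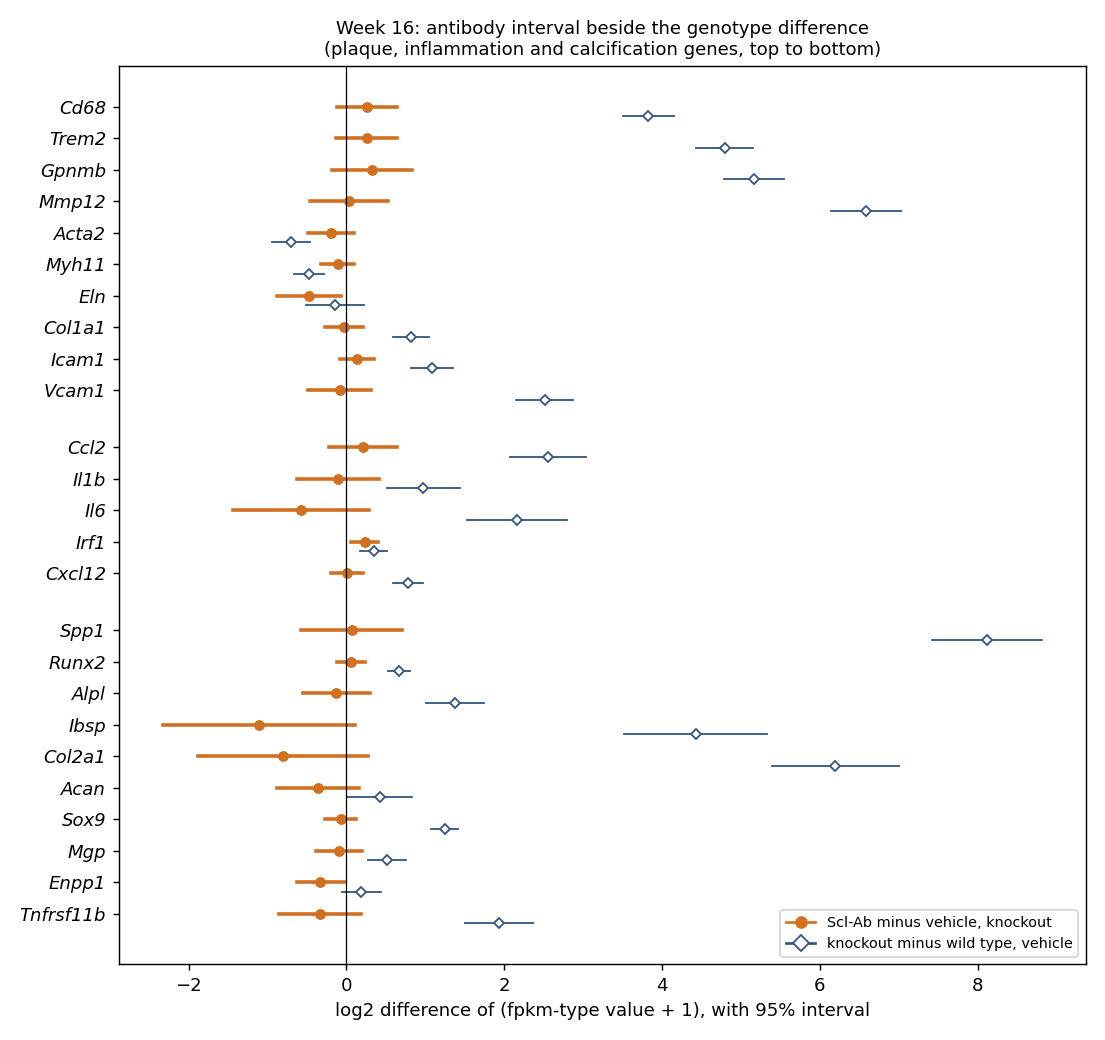
Log2 differences with 95% intervals for 25 genes of plaque, inflammation and calcification, from top to bottom: Scl-Ab minus vehicle in ApoE-KO (filled circles) and ApoE-KO minus WT under vehicle (open diamonds), week 16. The filled circles lie between -1.11 (Ibsp) and 0.32 (Gpnmb), while the diamonds reach 8.12 (Spp1).

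Sost itself had lower values under the antibody. Sost (chromosome 11, 101962458 to 101967015, GRCm38, protein-coding) ran from 100.4 to 343 (median 213) in vehicle libraries and from 62.5 to 226 (median 158) in Scl-Ab libraries, and 2 of 10 Scl-Ab libraries exceeded the vehicle median. The ranges overlapped, and the change of -0.60 ± 0.24 (-1.11 to -0.088, unadjusted p = 0.0237) did not pass (adjusted p = 0.283). It was -0.47 without library 7, -0.44 without the 5 libraries of neighbouring tissue and -0.25 with the clock components. In vehicle libraries Sost was lower in the knockout than in WT, with a log2 difference of -1.10 ± 0.20 (adjusted p = 2.37e-05). The co-receptor genes Lrp5 and Lrp6, to which sclerostin binds, had intervals of -0.33 to 0.11 and -0.29 to 0.019, and Lrp4, which anchors sclerostin, one of -0.10 to 0.16. Kremen1, a partner of the Dickkopf antagonists, had a change of -0.18 (-0.32 to -0.048), or -0.12 (-0.29 to 0.044) without the 5 libraries.

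Canonical Wnt targets had changes of both signs. Axin2, the feedback gene most used as a readout of canonical signalling, ran from 0.411 to 1.34 (median 0.991) in vehicle libraries and from 0.549 to 1.71 (median 1.27) in Scl-Ab libraries, close to the filter, with a change of 0.15 ± 0.10 (-0.054 to 0.36). Of 14 canonical targets tested (of 21) 6 were above 0 (median -0.025), and all 14 were held inside 2-fold. At an unadjusted p under 0.05, 1 was higher and 1 lower, beside 5.87% and 9.59% of all genes. Without the 5 libraries 10 of 14 were above 0 (median 0.058). Among secreted antagonists Wif1, a Wnt-binding protein, ran from 19.2 to 32.4 (median 25.1) in vehicle libraries and from 2.66 to 22.9 (median 20.1) in Scl-Ab libraries (-0.55, -1.08 to -0.033). All 10 Scl-Ab values lay below the vehicle median, library 7 lowest, and the change was -0.30 without it and -0.21 without the 5 libraries. Sfrp5, another Wnt-binding protein, ran from 1.1 to 2.73 (median 1.47) in vehicle libraries and from 1.66 to 3.59 (median 2.38) in Scl-Ab libraries, and all 10 Scl-Ab values lay above the vehicle median (0.39 ± 0.12, adjusted p = 0.22). Of 18 TGF-beta genes 3 were above 0 and 5 were lower at an unadjusted p under 0.05, beside 9.59% of all genes. Without the 5 libraries 1 was lower, beside 497 of all 13240 genes. With the clock components 0 were lower, beside 224 of all 13467. The TGF-beta gene of lowest change was Ctgf, a matrix-associated growth factor, which ran from 476 to 1172 (median 874) in vehicle libraries and from 288 to 819 (median 609.8) in Scl-Ab libraries (log2 change -0.60 ± 0.19, adjusted p = 0.222). Its change was -0.39 (-0.81 to 0.028) without the 5 libraries.

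Genes of lowest unadjusted p in each direction, predicted genes aside, did not pass either (each of those named here with an adjusted p of 0.187). Unc5c, a netrin receptor, ran from 3.65 to 9.96 (median 6.59) in vehicle libraries and from 1.58 to 5.48 (median 2.52) in Scl-Ab libraries. All 10 Scl-Ab values lay below the vehicle median, and the change was -0.93 ± 0.17. Gem, a small GTPase, stood at -0.80 ± 0.17, Dennd4a at -0.41 ± 0.082, Atxn1, a transcriptional co-regulator, at -0.32 ± 0.068 and the chaperone gene Dnajc3 at -0.21 ± 0.047. Nod1, a cytosolic receptor for bacterial peptidoglycan, ran from 9.51 to 13.5 (median 11.2) in vehicle libraries and from 12.1 to 14.8 (median 13.6) in Scl-Ab libraries, with all 10 Scl-Ab values above the vehicle median (0.27 ± 0.056). The histone gene Hist3h2a stood at 0.41 ± 0.090, the homeobox gene Hlx at 0.32 ± 0.069 and the zinc finger gene Repin1 at 0.22 ± 0.048. The predicted gene Gm6793 had a change of -0.54 ± 0.11. It passed where the 4 groups of week 16 were fitted together (adjusted p = 0.0132), the 1 call of that fit, and the WT change was -0.60.

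Among clock genes 8 of 15 had an unadjusted p under 0.05, beside 15.5% of all genes. Dbp, an output gene of the clock, ran from 23.1 to 71.5 (median 28.6) in vehicle libraries and from 21.1 to 121 (median 77.6) in Scl-Ab libraries (log2 change 0.95 ± 0.31), while the activators Npas2 (-0.72 ± 0.22) and Arntl (-0.67 ± 0.22) lay lower. Without the 5 libraries the changes of Dbp, Npas2 and Arntl were 0.99, -0.70 and -0.49. Of the 8, 5 were higher and 3 lower, and 0 passed (adjusted p of Dbp, Npas2 and Arntl = 0.226, 0.217 and 0.22). Of 17 glucocorticoid-induced genes 5 were lower at an unadjusted p under 0.05, beside 9.59% of all genes. Lower at that level were 3 without library 7, beside 953 of all 13408 genes. Without the 5 libraries 1 was lower and 3 were higher, beside 497 and 620 of all 13240. With the clock components 0 were lower, beside 224 of all 13467. The lowest change was that of Errfi1, whose product restrains EGF receptor signalling, which ran from 79.6 to 335 (median 166) in vehicle libraries and from 28.4 to 194 (median 61.7) in Scl-Ab libraries (-1.10 ± 0.33; -0.66 without the 5 libraries). With those 2 clock components as covariates 544 genes (4.04%) in place of 2082 had an unadjusted p under 0.05. The median SE was also larger in that fit, 0.102 against 0.085 in the main fit. The hour of sampling is not given in the sources used here, so its part in the difference was not tested.

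No difference of the Scl-Ab response between genotypes passed. The interaction over 38 libraries had 0 calls among 13897 genes (0%). At an unadjusted p under 0.05 stood 486 genes (3.5%), and no adjusted p lay below 0.935. The ApoE-KO response minus the WT response was -0.52 ± 0.29 for Sost, while for Spp1 the difference was -0.54 ± 0.50, for Cd68 0.20 ± 0.23 and for Tnfrsf11b -0.75 ± 0.31. The SE of an interaction was larger than that of the response itself (median 0.121 against 0.085).

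Between sampling times the response differed in 64 genes. In limma over 57 ApoE-KO libraries, 54 of 14218 genes had a lower response in week 16 than in week 3 (0.38%) and 10 a higher one (0.0703%), or 0.45% in all. The count of 64 was 42 with a filter of 5 and 2645 with array weights, which give less weight to libraries that stand apart. In week 3 itself 1116 genes (7.85%) passed between Scl-Ab and vehicle, in libraries that this difference shares. Unc5c went from 0.86 in week 3 to -0.93 in week 16, a difference of -1.80 ± 0.30 (adjusted p = 0.00124). Nr3c2, the mineralocorticoid receptor, went from 0.91 to -0.40 (adjusted p of the difference 0.00124), Atxn1 from 0.48 to -0.32 (0.00124) and Timp4, an inhibitor of matrix metalloproteinases, from -0.81 to 0.47 (0.0413). Timp4 was the 1 gene of the plaque lists among the 64, and the inflammation and calcification lists had 0. Cd68, Spp1 and Ccl2 had adjusted p-values of 0.619, 0.336 and 0.985 for this difference. Against week 8, where 305 genes (2.15%) passed, 0 responses differed (0% of 14218), and 887 genes (6.24%) had an unadjusted p under 0.05, the lowest adjusted p being 0.159. Age, sampling day and the 3 sequencing batches of the study's text, which are not assigned to libraries, cannot be told apart between times.

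**Figure D5:**
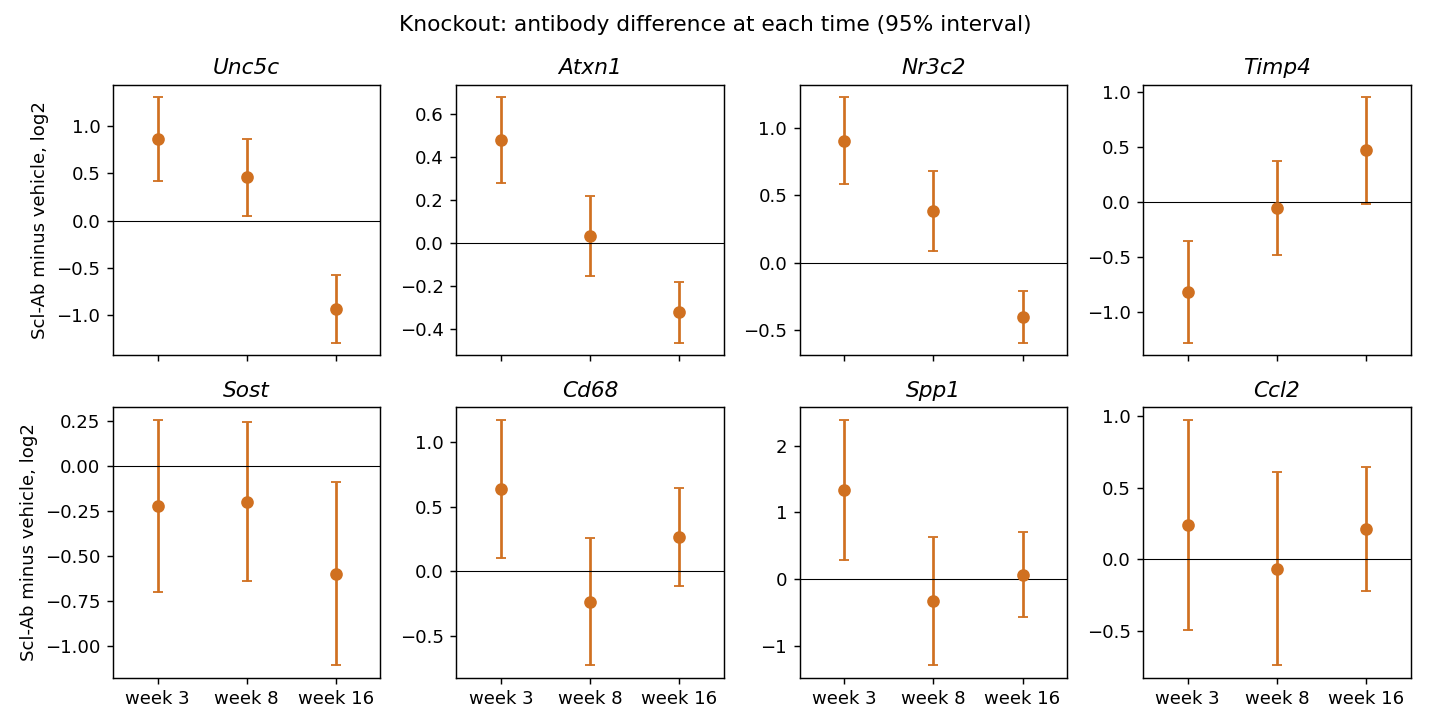
Scl-Ab minus vehicle on the log2 scale with 95% intervals in ApoE-KO arches of weeks 3, 8 and 16 (weeks 3 and 8 from the fit over 57 libraries, week 16 from the fit over 20). Unc5c, Atxn1 and Nr3c2 lie above 0 in week 3 and below 0 in week 16, Timp4 the reverse, and the intervals of Cd68, Spp1 and Ccl2 in week 16 include 0.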

How the data were processed

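RNA of the aortic arch, from mice perfused before dissection and with adventitial fat scraped off, was sequenced as stranded mRNA libraries, with an RNA integrity number of at least 7, per the labels' protocols. The deposited column, named FPKQ in the file headers and not defined there, was read as an FPKM-type value. It is not a count, and depth in reads is not given in the sources used here. GRCm38 and DESeq2 1.10.1 are named in the submitters' processing notes, with no role given, and mitochondrial symbols (0 in the files) could not be used as a quality measure. Groups and replicate numbers come from the labels. Nothing in the labels assigns the 3 sequencing batches to libraries, so none could be used as a term, and p-values measure the spread between these libraries.

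The 13467 genes at or above 1 in 5 or more of the 20 libraries were fitted as log2(value + 1) with limma 3.58.1 in R 4.3.3 (trended, robust moderation), with Benjamini-Hochberg adjustment over all genes tested and 95% intervals per gene. The fit was tested on simulated data. WT and other weeks entered separate fits over 38 and 57 libraries. Gene positions are from GENCODE M21 (GRCm38). The members and lists were chosen with earlier results of these data known. Named genes are a fixed panel, the 5 genes of lowest p in each direction where fewer than 5 were called, and of each list the 2 of highest level and those of highest and lowest change. Of these, 1 gene that this rule names is not reported here. Alternatives were another pseudocount (0.1), filter (none, or 5) and scaling, fits over more groups, array weights, moderation without trend, a replicate block, covariates for neighbouring tissue or clock genes, and leaving out libraries.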

Additional observations from a re-analysis of the deposited data

Results flagged for a closer look

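In 82 named genes, both groups of 10 libraries were searched for a lowest or highest library whose gap to its nearest neighbour was too large a part of the group's range by Dixon's 95% criterion, and 14 of 164 gene and group pairs had one, where chance alone gives about 1 in 20 groups. Scl-Ab library 7, the library of high adipocyte markers, was the one in 10 of them. It was lowest for Wif1 (2.66, next 16.2), Gpnmb (142, next 341), Cd5l (17.6, next 178), Mmp12 (82.8, next 176), Cd9 (208, next 323), Tagln (1276, next 2238), Col15a1 (57.8, next 99.8), Vcam1 (86.5, next 164) and Spp1 (445, next 1519.6), and highest for Nr1h3 (39, next 24.4). Scl-Ab library 10, of high thymocyte markers, was highest for Trbc2 (21, next 5.89). Among vehicle libraries, replicate 10 was lowest for Axin2 (0.411, next 0.822) and highest for Il1b (8.22, next 2.5), and replicate 2 was lowest for Cd9 (371, next 436). The part of neighbouring tissue in these values was not tested.

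The Scl-Ab response differed between weeks 16 and 3 by -1.80 for Unc5c, -0.80 for Atxn1 and -1.31 for Nr3c2 (log2, adjusted p = 0.00124 in limma for each) and by 1.28 for Timp4 (adjusted p = 0.0413).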

How the results depend on the processing

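The number of calls between Scl-Ab and vehicle was 0 with pseudocount 0.1, with no filter, with a filter of 5, with median-of-ratios scaling, quantile normalization, array weights, no trend, either set of covariates and every single library left out (0 to 0). It was 1 in the fit over the 4 groups of week 16 (Gm6793, -0.54, adjusted p = 0.0132), 2 in the fit over all libraries of the series (Gm6793 and Dennd4a, adjusted p = 0.0485 each) and 1 without the 5 libraries of neighbouring tissue (Gm13341, -0.94, adjusted p = 0.000559), all lower, the last an alternative and a gene chosen after seeing the data. Leaving out 1 library at a time gave 208 to 217 plaque, 128 to 132 inflammation and 47 to 56 calcification genes inside 2-fold, and 212 to 219, 133 to 138 and 61 to 63 with an upper bound under 2-fold. With a filter of 5 the last count was 41 for calcification, since fewer genes were tested. With the clock components it was 53. The count at an unadjusted p under 0.05 was 544 with clock components and 1117 without the 5 libraries, against 2082. Median SEs in these 2 fits were 0.102 and 0.092, against 0.085. Differences of response between weeks 16 and 3 numbered 42 with a filter of 5 and 2645 with array weights, and between weeks 16 and 8 12 with array weights, against 64 and 0; the cause was not tested. Under the replicate block 0 genes were called (2515 at an unadjusted p under 0.05, smallest adjusted p 0.157). Same-numbered libraries had correlations of deviations from -0.19 to 0.38 (median 0.17), 6 of 10 above 0.1 and 2 of 10 highest with their own number. Mean correlations with other numbers ran from -0.12 to 0.045. The median SE was 0.078 under the replicate block and 0.085 in the main fit. Numbers were not treated as pairs in the main fit, and these values do not settle whether they are. Of the values of single named genes under these alternatives 2680 did not pass and moved by less than the gene's spread between libraries, whatever their sign. A further 9 moved by more and 3 came to pass. A reversal was counted only where a gene passed in a fit, and there were 0. That count leaves out changes of sign in genes that did not pass, such as Ibsp from -1.11 to 0.11 with the clock components. Without read depth, the limits of low genes such as Runx2 and Axin2 cannot be separated from counting error.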

Other observations

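Nuclear genes of oxidative phosphorylation were above 0 in 20 of 20 under Scl-Ab, with a median of 0.31 (log2). Of these 1 was higher at an unadjusted p under 0.05, beside 5.87% of all genes. Without the 5 libraries of high neighbouring-tissue markers 1 of 20 was above 0 and the median was -0.12. Of the cardiomyocyte genes 8 were tested, all 8 above 0 with a median of 1.32. Without those 5 libraries 0 of 7 tested were above 0, with a median of -0.30. Their cardiac actin gene Actc1 reached 499 under Scl-Ab against 18.8 under vehicle (log2 change 1.59, -0.35 to 3.53, adjusted p = 0.392 in limma), and its change was -0.41 without the 5 libraries. The brown adipocyte gene Ucp1, the uncoupling protein, reached 1404 against 364 (0.51, -0.83 to 1.85), and its change was -0.72 without them. The 5 libraries were picked for high values of these marker lists, and all are in the Scl-Ab group. Lower changes of cardiomyocyte and adipocyte markers without them therefore follow from the choice and are not a result. Immediate early genes had 5 of 18 lower at an unadjusted p under 0.05, beside 9.59% of all genes. That count was 1 without library 7, 1 without the 5 libraries and 0 with the clock components. Over all genes the counts in these fits were 953 of 13408, 497 of 13240 and 224 of 13467, against 1292 of 13467. Of the cell cycle genes 22 of 22 tested were held inside 2-fold.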
